A study of Mus musculus with 11 samples.

Results

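Hnf4a and Hnf4g are the 2 paralogous genes of hepatocyte nuclear factor 4 in the mouse. Their loci were described from lists of transcription factor peaks and H3K4me2 nucleosomes of jejunal villus epithelium. Members were all entries centred inside chromosome 2 from 163300000 to 163420000 (120 kb, with Hnf4a at about 163.33 to 163.40 Mb) and chromosome 3 from 3450000 to 3700000 (250 kb, with Hnf4g at about 3.51 to 3.66 Mb), in build mm9. The windows held 46 of the 57382 factor peaks of 5 lists, 27 at Hnf4a and 19 at Hnf4g. They held 902 of the 1310379 H3K4me2 nucleosomes with a score of 52 or more in another 5 lists, 575 at Hnf4a and 327 at Hnf4g.

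Villi of mice on a mixed 129xC57BL6 background were used for chromatin immunoprecipitation and sequencing (ChIP-seq). CDX2 was mapped in wild type (2 libraries) and in Hnf4a knockout. HNF4A was mapped in villi of both wild type and Cdx2 knockout. The histone mark H3K4me2, a dimethylation of histone H3, was mapped in wild type, Cdx2 knockout, Hnf4a knockout and 2 double knockouts, and every group other than CDX2 in wild type had 1 library. The labels of both double knockouts name Cdx2 as deleted but contradict themselves on the second gene, which is Cdx1 in one label and Hnf4a in another, so these libraries are called by their titles. Each library was made from pooled immunoprecipitations. No source used here gives the age of the mice, the alleles or the way each deletion was made, and the lists hold no expression values by which the tissue could be checked.

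HNF4A and HNF4G are nuclear receptors that bind the same kind of DNA element through zinc fingers, and both are made in enterocytes, the absorptive cells of the villus. CDX2 is a homeodomain factor that keeps intestinal identity. H3K4me2 marks nucleosomes of active promoters and enhancers. Hnf4a is known to have a pair of promoters, a distal one named P2 and a proximal one named P1, which give proteins with different amino termini.

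RefSeq lists 2 starts for Hnf4a in build GRCm38.p6, 40.3 kb apart on the plus strand, and none for Hnf4g was matched. The bases before each start are shown because the marks over Hnf4a differed along the gene. They lie at chr2:163506607-163506810 for start 1, ending where the gene's annotation begins, and at chr2:163546905-163547154 for start 2. These positions are of GRCm38.p6 and were not carried over to mm9, so which domain of mm9 holds which start is not stated. For start 1 only 204 of the 250 bases searched are shown, and those nearest the start are left out. Capitals mark matches to the motifs searched.
Hnf4a start 1: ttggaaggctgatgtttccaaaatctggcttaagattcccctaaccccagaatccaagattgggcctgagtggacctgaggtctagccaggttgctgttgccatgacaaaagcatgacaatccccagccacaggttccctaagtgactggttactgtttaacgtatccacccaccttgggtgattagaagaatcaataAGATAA
Hnf4a start 2: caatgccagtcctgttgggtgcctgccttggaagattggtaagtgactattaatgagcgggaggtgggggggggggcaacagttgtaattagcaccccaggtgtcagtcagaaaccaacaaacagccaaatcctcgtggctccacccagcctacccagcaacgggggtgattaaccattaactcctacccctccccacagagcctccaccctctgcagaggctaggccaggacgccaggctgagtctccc
The motifs were searched on both strands: CAAAGTCCA and its looser form CAAAGNNCA for HNF4, TTTATNG for CDX factors, AGATAA for GATA factors and the palindromic HNF1 motif. The 250 bases before each start were searched. The looser HNF4 form holds every match of the strict one. HNF1 was searched in a strict palindromic form alone. Sites that differ from its fixed letters were not sought, so a missing match does not mean that an HNF1 site is absent. Before start 1 there was 1 GATA match, which begins 52 bases before the start and closes the stretch shown, and no other match. Before start 2 there was none. In the same window of all 32851 mouse promoters listed, the GATA letters occurred in 9.99%, the CDX letters in 9.81%, the looser HNF4 letters in 5.49%, the strict ones in 0.384% and the HNF1 letters in 0.0335%. In that RefSeq table, R3hdml is the nearest protein-coding gene before Hnf4a and Ttpal the nearest after it, and the non-coding RNA gene Hnf4aos overlaps Hnf4a.

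Each factor peak has a position and a score, and the score is the authors' own value. Lists held between 5768 and 22376 peaks, none scoring below 50. The H3K4me2 lists give for each nucleosome 10 times the −log10 of a p-value, called its score here, with a ceiling of 3250. At a score of 52 or more they held between 245431 and 281957 nucleosomes. Depth in reads is unknown, and peak scores move with depth, so a score is read only within its own list. A peak or nucleosome was kept where an entry of the other list overlapped it by 1 bp or more, and not called otherwise. Shares have exact Clopper-Pearson 95% intervals and ratios exact binomial ones, which cover counting error only and treat neighbouring entries as independent. With 1 library per knockout no test between conditions was made. In whole villi, fewer cells with a mark and less mark per cell cannot be told apart.

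HNF4A occupied its own gene region mainly at 1 place. In wild type 7 HNF4A peaks were called in the Hnf4a window, a number reached by 3.36% of 120 kb tiles of the genome. The highest spanned 163400093 to 163401397 on chromosome 2 with a score of 773.5, and 1.28% of the whole list scored as high. It lies at the approximate 3′ end of Hnf4a, 70.7 kb from the gene's approximate start. The other 6 peaks scored between 53.8 and 92.8, and only the one scoring 92.8 was above the median of the list, 81.1. They lay at 163367207 to 163367734 (74.5), 163372991 to 163373293 (72.8), 163373508 to 163373756 (61.3), 163383010 to 163383288 (53.8), 163389736 to 163390219 (92.8) and 163404787 to 163405064 (62.5). The first 5 of these are inside the approximate bounds of the gene and the last is beyond them.

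In Cdx2 knockout, HNF4A was called again only at the highest of these 7 sites. The kept share was 14.3% (0.361 to 57.9), against 30.1% of all 22376 wild-type peaks, so the interval holds the genome's share. With lists of equal length it was 1 of 2, or 50%, and no genome share was computed for that setting. The site at 163400093 carried 2 adjoining peaks in the knockout, at 163400261 to 163400569 (71.7) and 163400577 to 163400990 (101.4). Within the knockout list, 36.5% of peaks scored as high as the second. Of the 286 wild-type HNF4A peaks scoring at least as high as this site, 97.9% were kept. At 5.24% of the 286 no knockout peak, or none above 101.4, was called. Peaks at the other 6 sites were not called in the knockout.

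Another 4 HNF4A peaks of the Hnf4a window were called in Cdx2 knockout alone. They lay at 163319864 to 163320031 (57.7), 163329738 to 163329956 (50.2), 163351445 to 163351645 (66.3) and 163419673 to 163419981 (83.8). Knockout-only peaks were 4 of the 6 in the window and 29.6% of all knockout peaks. The other 2 peaks, at the site above, were also in wild type, as were 70.4% of all knockout peaks. Of the 4, only the one at 163419673 scored above the knockout list's median of 81.2. The peaks at 163319864 and 163329738 lie before or at the approximate start of Hnf4a, the one at 163351445 inside the gene and the one at 163419673 beyond its end. Tiles of 120 kb with 6 or more HNF4A peaks in the knockout made up 0.872%.

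**Figure D1:**
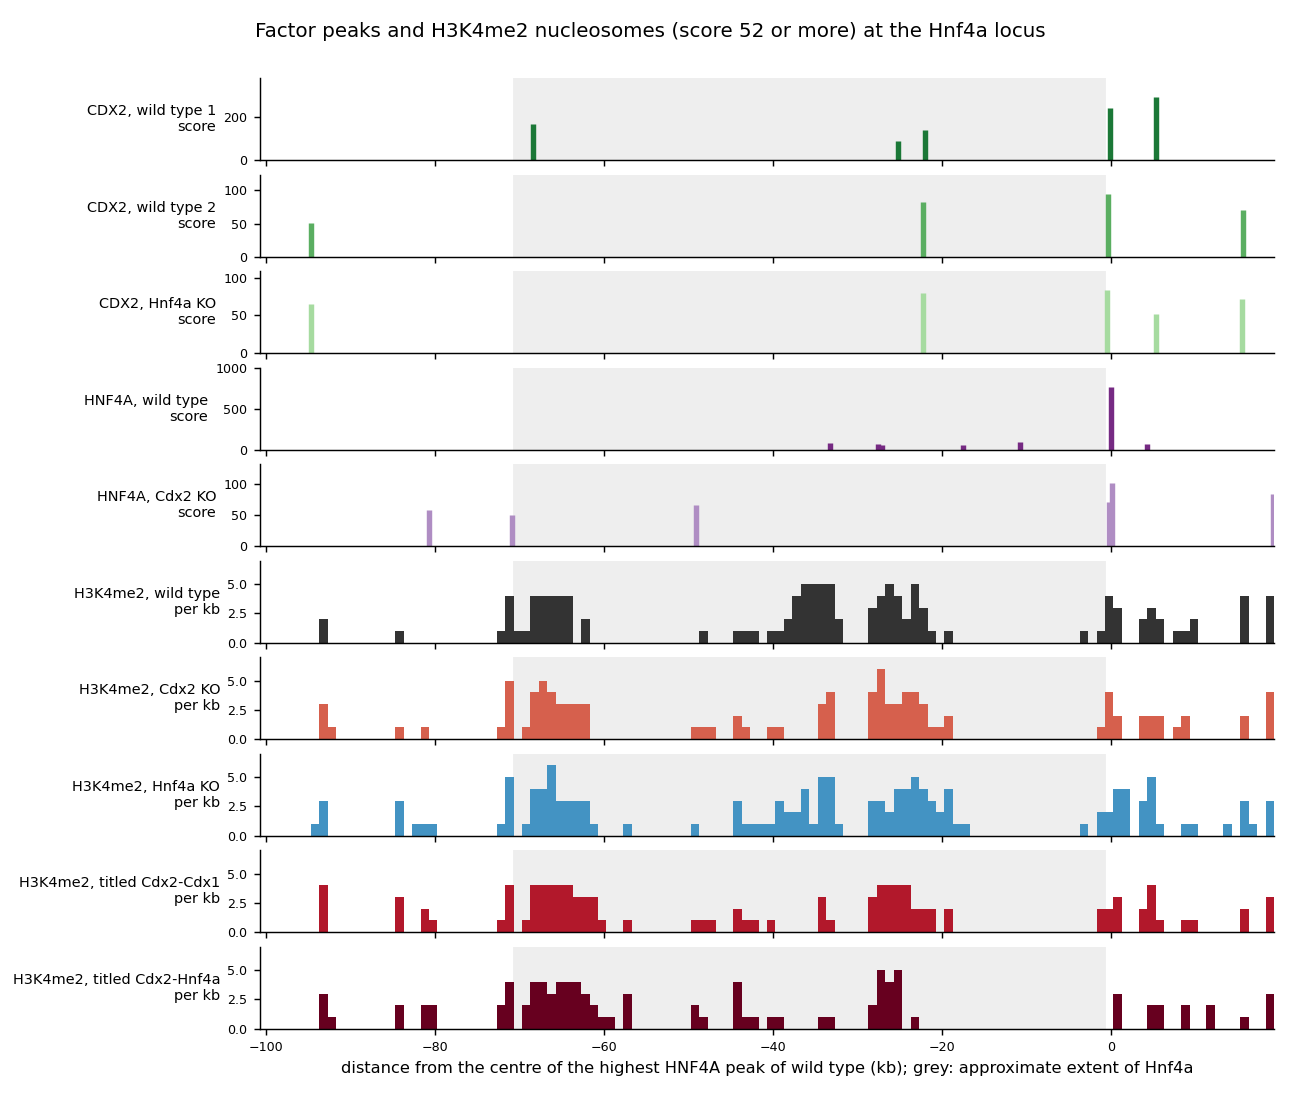
Factor peaks (bars at the peak centre, with the authors' score as height, each list on its own scale) and H3K4me2 nucleosomes per kb (score 52 or more) at the Hnf4a locus, against the distance in kb from the centre of the highest wild-type HNF4A peak. Grey marks the approximate extent of the gene. The middle block of H3K4me2 within the gene has 30 nucleosomes in wild type, 24 in Hnf4a knockout and 4 to 9 in the 3 libraries lacking Cdx2.

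CDX2 was called at 7 places of the Hnf4a window in wild type, and 5 of these were called again in Hnf4a knockout. Of the places in all 3 CDX2 lists, the one with the higher scores was at the 3′ end, at 163400049 to 163401053. CDX2 scored 239.8 there in wild-type library 1, 95.2 in library 2 and 83.5 in Hnf4a knockout, within the top 2.84%, 7.43% and 8.36% of the lists. It is the only site of the window with both factors. Over the genome 16.5% of wild-type HNF4A peaks overlapped a wild-type CDX2 peak, and 19.1% of wild-type CDX2 sites overlapped an HNF4A one. A site inside the gene at 163378155 to 163379247 was likewise in all 3 CDX2 lists, with 138.0, 83.1 and 80.2.

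The other CDX2 places were not in every list. The highest CDX2 peak of library 1 in the window, at 163405808 to 163406314, scored 291.5, was not called in library 2 and scored 51.6 in Hnf4a knockout. Places outside the gene at 163305944 to 163306221 and 163416083 to 163416498 were called in library 2 (51.3 and 69.8) and in Hnf4a knockout (64.7 and 71.2) but not in library 1. Peaks near the gene's approximate start, at 163331929 to 163332795 (168.6), and at 163375068 to 163375902 (88.9) were in library 1 alone. The libraries of 1 genotype thus differed from each other here in 5 of 7 places.

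The share of wild-type CDX2 places called in Hnf4a knockout was 71.4% (29.0 to 96.3) at Hnf4a, against 7.15% of all 17966 such places. It was 2 of 5, or 40%, with peaks scoring 70 or more in every list, for which no genome share was computed. It was 1 of 3, or 33.3%, over the gene without its flanks. By library it was 3 of 5 peaks for library 1 (8.6% of its whole list) and 4 of 4 for library 2 (11.6%). All 5 knockout peaks of the window overlapped a wild-type peak, against 22.4% of the knockout list. Most CDX2 peaks of either wild-type list were not in the other: 13.1% of library 1 overlapped library 2, and 21.4% of library 2 overlapped library 1. Against sites called in both wild-type libraries, of which 39.2% were called in the knockout, Hnf4a had 2 of 2. Tiles of 120 kb with 5 or more CDX2 peaks made up 1.36% of the genome in library 1 and 0.0318% in Hnf4a knockout, and tiles with 4 or more in library 2 made up 0.236%.

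At Hnf4g CDX2 had 9 places in wild type and HNF4A had 1, where Hnf4a had 7 of each. The HNF4A peak, at 3553513 to 3553719 on chromosome 3, scored 56.3, and 82.4% of the list scored as high. It overlapped no CDX2 peak, and 16.5% of all wild-type HNF4A peaks overlapped one of wild type. It had no wild-type H3K4me2 nucleosome within 1 kb and was not called in Cdx2 knockout, where the Hnf4g window had no HNF4A peak. Having at least 1 HNF4A peak was common, being true of 48.4% of 250 kb tiles. Having 7 or more CDX2 peaks was true of 1.99% of tiles in library 1 and 0.0473% in library 2, and the Hnf4g window had 7 in each.

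The CDX2 places of Hnf4g lay in 2 groups, 1 before the gene and 1 towards its 3′ end. Before the gene, the site at 3503386 to 3504027 scored 363.6 in library 1, 134.3 in library 2 and 97.4 in Hnf4a knockout, within the top 0.932%, 2.73% and 4.73% of the lists. Its centre is at −6.3 kb from the approximate start. Another peak at 3497562 to 3497796 was in library 2 alone (65.3) and had no nucleosome within 1 kb in any list.

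The second group spanned 7 places, from 103.8 to 135.8 kb beyond the approximate start. The site at 3633832 to 3634459 scored 323.1, 119.3 and 88.0 in library 1, library 2 and Hnf4a knockout. The site at 3618598 to 3618961 scored 91.6, 270.0 and 89.4, and its library 2 peak ranked 24 in that list. The site at 3645598 to 3646006 scored 103.1, 114.8 and 69.3. These 3, with the site before the gene, were the 4 places called in all 3 CDX2 lists.

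Another place was in both wild-type libraries but not in Hnf4a knockout, at 3613530 to 3614014, with scores of 142.3 and 171.2. Its library 2 peak was within the top 1.28% of that list. Peaks at 3627135 to 3627647 (75.3) and 3639126 to 3639672 (57.5) were in library 1 alone, and one at 3643681 to 3643947 (72.9) in library 2 alone. None of these was called in the knockout.

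Of the CDX2 peaks at Hnf4g, 5 of 7 of either library were shared by the other, 71.4% (29.0 to 96.3), against 2 of 5 of library 1 and 2 of 4 of library 2 at Hnf4a. Over the whole lists, 13.1% of library 1 and 21.4% of library 2 were shared. Counts are small and the intervals of the 2 genes overlap. In Hnf4a knockout 4 of 9 places were called, 44.4% (13.7 to 78.8), against 7.15% of all 17966 wild-type places. Of the 5 that were in both libraries 4 were called, against 39.2% of such sites over the genome. All 4 knockout peaks of the window were in both wild-type libraries. Over the whole knockout list, 18.2% were in library 1 and 14.9% in library 2. Of 250 kb tiles, 0.814% held as many knockout peaks. CDX2 was thus called near both paralogues in Hnf4a knockout. Whether less CDX2 was bound cannot be read from scores of separate lists.

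**Figure D2:**
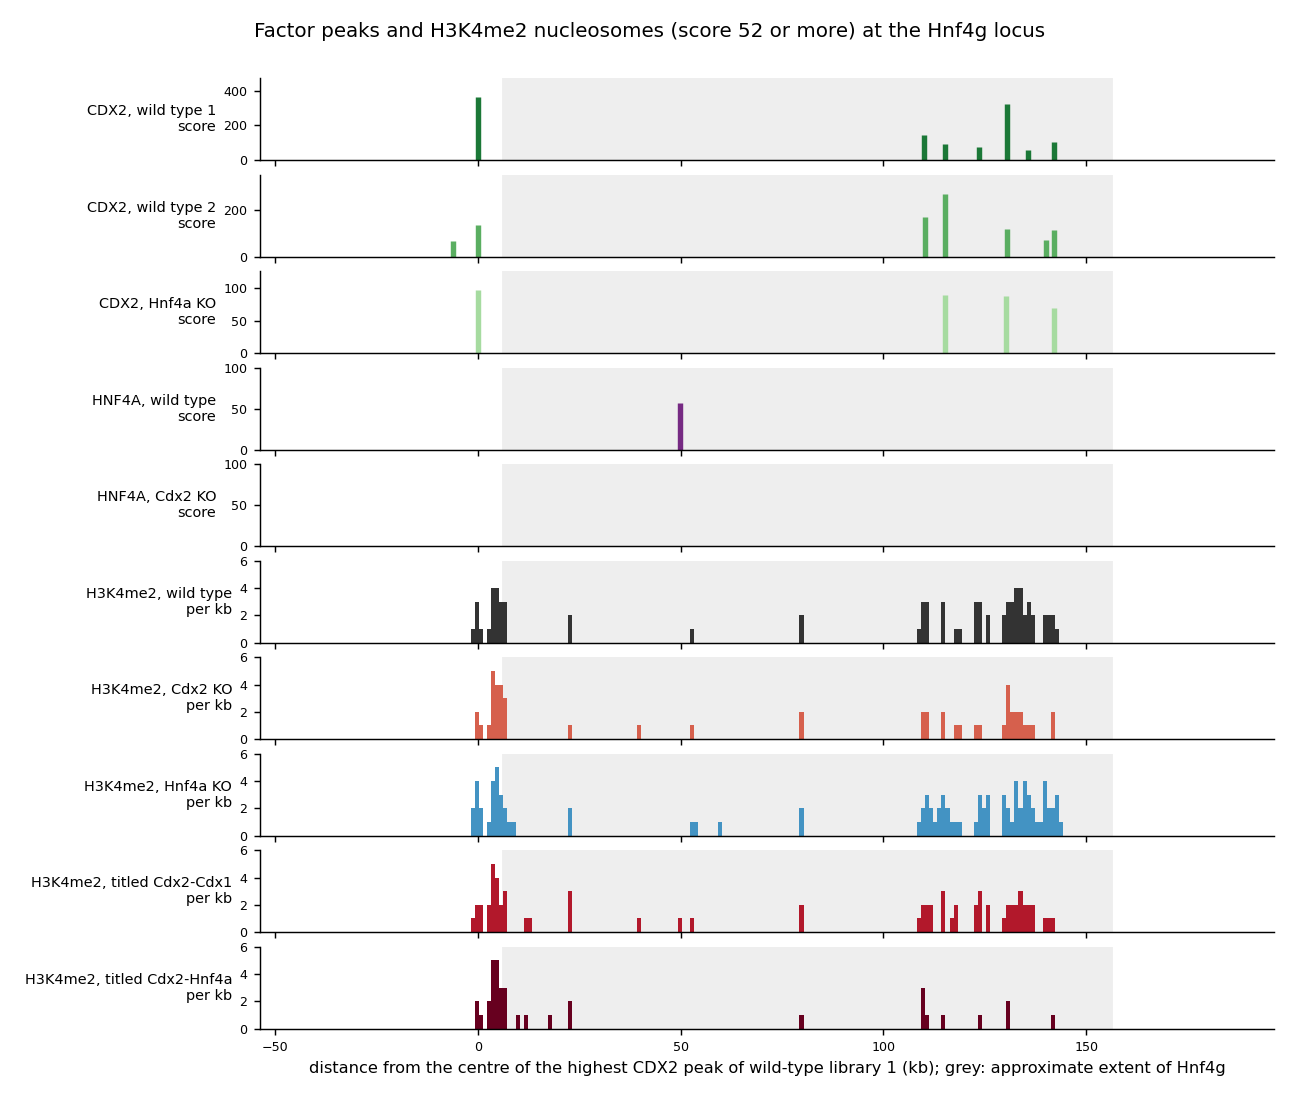
The same display for the Hnf4g locus, against the distance in kb from the centre of the highest CDX2 peak of wild-type library 1. CDX2 peaks stand before the gene and in a cluster towards its 3′ end, where the fullest domain holds 23 nucleosomes in wild type, 14 in Cdx2 knockout and 2 in the library titled Cdx2-Hnf4a. At the gene's start the block has 15 to 18 in the 5 lists.

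H3K4me2 at Hnf4a numbered 122 nucleosomes in wild type, 106 in Cdx2 knockout, 144 in Hnf4a knockout, 107 in the library titled Cdx2-Cdx1 and 96 in the library titled Cdx2-Hnf4a. Scaled by list length, ratios to wild type were 0.830 (0.634 to 1.09), 1.16 (0.903 to 1.49), 0.763 (0.583 to 0.998) and 0.70 (0.530 to 0.922). Of these, the ratios of both double knockouts had an interval below 1. None was 1.5-fold lower. Of 120 kb tiles with 20 or more wild-type nucleosomes, 5.06%, 1.16%, 6% and 12.5% were, in the same order of libraries.

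At Hnf4g the numbers were 75 in wild type, 51 in Cdx2 knockout, 95 in Hnf4a knockout, 70 in the library titled Cdx2-Cdx1 and 36 in the library titled Cdx2-Hnf4a. Scaled ratios were 0.650 (0.446 to 0.940), 1.24 (0.908 to 1.70), 0.812 (0.578 to 1.14) and 0.427 (0.279 to 0.643). Of 250 kb tiles with 20 or more wild-type nucleosomes, 4.21% were at least 1.5-fold lower in Cdx2 knockout and 8.88% in the library titled Cdx2-Hnf4a, and Hnf4g was past that fold in both. It was not past it in Hnf4a knockout, where 0.801% of tiles were lower and 0.568% higher, nor in the library titled Cdx2-Cdx1, where 4.34% were lower and 4.11% higher. Tiles at least 1.5-fold higher made up 1.65% in Cdx2 knockout and 6.12% in the library titled Cdx2-Hnf4a. Both windows thus had fewer nucleosomes in each library lacking Cdx2 and more in Hnf4a knockout. The Hnf4a knockout intervals include 1, as do those of Cdx2 knockout at Hnf4a and the library titled Cdx2-Cdx1 at Hnf4g. With the lists as deposited, whose minimum scores differ, the Hnf4g ratio in Hnf4a knockout was 1.37 (1.05 to 1.81), which excludes 1, and the Hnf4a ratio in the library titled Cdx2-Cdx1 was 0.773 (0.593 to 1.01), which does not. At a score of 100 or more, the Hnf4g ratio in Hnf4a knockout was 1.06 (0.710 to 1.58). Within the Hnf4a knockout list the median score was 180.8 at Hnf4a and 141.1 at Hnf4g, against 206.8 over the list. Within the wild-type list it was 227.5 and 196.0, against 241.6.

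Nucleosome by nucleosome, 71.3% (62.4 to 79.1) of the 122 wild-type nucleosomes of Hnf4a were kept in Cdx2 knockout, against 79.3% of all wild-type nucleosomes. The shares were 73.8% in Hnf4a knockout (78.6% over the genome), 61.5% (52.2 to 70.1) in the library titled Cdx2-Cdx1 (75.9%) and 53.3% (44.0 to 62.4) in the library titled Cdx2-Hnf4a (73.1%). At Hnf4g they were 58.7% (46.7 to 69.9), 82.7% (72.2 to 90.4), 77.3% (66.2 to 86.2) and 37.3% (26.4 to 49.3). The interval of the library titled Cdx2-Cdx1 lay below the genome share at Hnf4a and held it at Hnf4g, but the 2 intervals overlapped each other. Both were below it in the library titled Cdx2-Hnf4a, where Hnf4g was the lower of the pair. In Cdx2 knockout the interval of Hnf4g lay below the genome share, and so did that of Hnf4a, whose upper bound was close to it. In Hnf4a knockout both intervals held it. Neighbouring nucleosomes are not independent, which the intervals do not allow for. Of the 35 wild-type nucleosomes of Hnf4a not called in Cdx2 knockout, 16 lay in 1 stretch.

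In the other direction, most nucleosomes of the libraries lacking Cdx2 were also in wild type. At Hnf4a the shares were 82.1% in Cdx2 knockout (75.7% over the genome), 71.0% in the library titled Cdx2-Cdx1 (66.3%) and 68.8% in the library titled Cdx2-Hnf4a (65.1%). At Hnf4g they were 88.2%, 80.0% and 80.6%. Hnf4a knockout was the exception, with 63.2% (54.8 to 71.1) at Hnf4a and 66.3% (55.9 to 75.7) at Hnf4g against 77.3% over the genome. Of its nucleosomes, 53 at Hnf4a and 32 at Hnf4g had no counterpart in wild type.

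**Figure D3:**
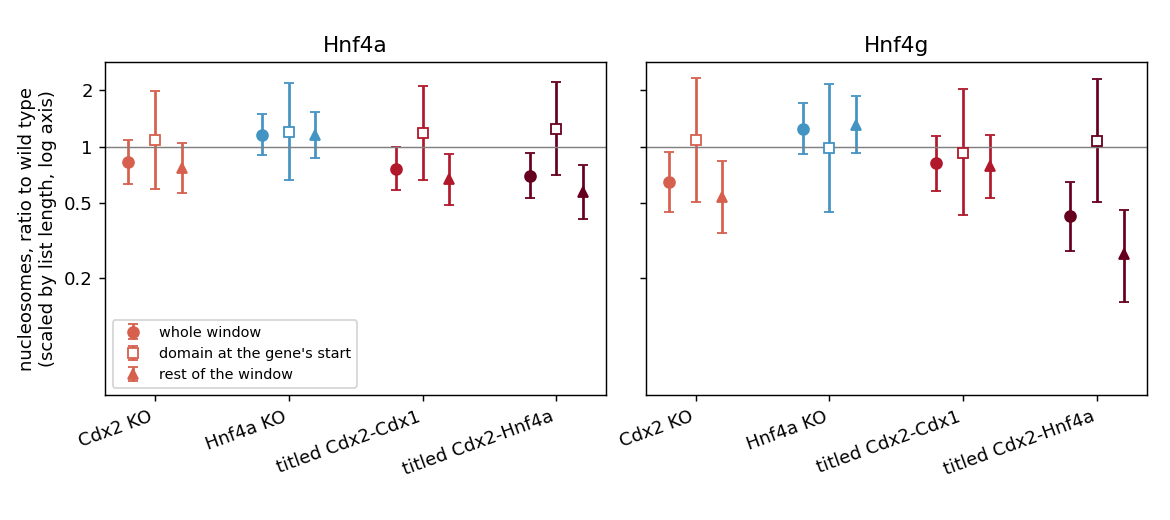
Ratio of the number of H3K4me2 nucleosomes to wild type, scaled by list length, on a log axis. Symbols show the whole window, 1 domain next to or at the gene's approximate start, and the rest of the window. At Hnf4a the domain is 163331581 to 163341541, just after the approximate start, and at Hnf4g 3506311 to 3510861. The small Hnf4a domain that spans the approximate start is counted in the rest. Bars are exact binomial 95% intervals for counting error in 1 library each. The domain next to or at the start lies between 0.928 and 1.24. The rest of the Hnf4g window is at 0.267 in the library titled Cdx2-Hnf4a.

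The nucleosomes of each window fell into separate blocks. A domain here is a run of nucleosomes of any list whose centres are at most 1 kb apart, with 5 or more in at least 1 list. The Hnf4a window had 6 domains and the Hnf4g window 7. In the library titled Cdx2-Hnf4a, 4 of the 6 Hnf4a domains were at least 1.5-fold lower, against 19.7% of domains over the genome. In Cdx2 knockout 1 was (11.5% over the genome), in the library titled Cdx2-Cdx1 1 was (16.3%), and in Hnf4a knockout none was (8.8%). Of the 4, only the domain from 163360351 to 163368741 had an interval below 1.

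The domain next to the approximate start of Hnf4a, from 163331581 to 163341541, had more nucleosomes in each knockout than in wild type, within counting error. It held 23 nucleosomes in wild type, 26 in Cdx2 knockout, 28 in Hnf4a knockout, 31 in the library titled Cdx2-Cdx1 and 32 in the library titled Cdx2-Hnf4a, with scaled ratios of 1.08, 1.19, 1.17 and 1.24, whose intervals all include 1. The only factor peak in it was the CDX2 peak of library 1. The small domain just before it, from 163328541 to 163330061, had 6 nucleosomes in wild type and 5 or 6 in the others, and held the HNF4A peak of Cdx2 knockout at 163329738.

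A domain inside Hnf4a, from 163360351 to 163368741, held few nucleosomes in the lists lacking Cdx2. Its 30 wild-type nucleosomes compare with 9 in Cdx2 knockout, 5 in the library titled Cdx2-Cdx1 and 4 in the library titled Cdx2-Hnf4a, but 24 in Hnf4a knockout. The ratios were 0.287 (0.120 to 0.619), 0.145 (0.0439 to 0.378) and 0.119 (0.0304 to 0.337) without Cdx2, and 0.784 (0.439 to 1.39) in Hnf4a knockout. A number at least 3-fold lower in all 3 libraries lacking Cdx2 was seen in 1.29% of the 17129 domains with 5 or more wild-type nucleosomes. Among the 1222 domains with 20 or more, it was seen in 7, or 0.573%, this one included. At the planned fold of 1.5, 6.17% of the 17129 domains were lower in all 3. The domain was named for its large fall, so the shares at the larger fold describe it and test nothing.

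The same domain held no CDX2 peak in any of the 3 CDX2 lists. Its only factor peak was the weak HNF4A one at 163367207 to 163367734, which was not called in Cdx2 knockout. The nearest CDX2 place lay in the next domain. Wild type had 5 nucleosomes in each kb from 163364001 to 163368000. In Cdx2 knockout the 16 wild-type nucleosomes from 163362381 to 163365961 had no counterpart and no nucleosome at all was called there. The double knockouts had none there either, and Hnf4a knockout had 9. Stretches of 16 or more held 0.172% of all wild-type nucleosomes.

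At the edge of that domain a single high-scoring nucleosome was called in every list. It lay at 163360951 to 163361041 and had the highest wild-type score of the window, 3107.9. Its score was 3016.4 in Cdx2 knockout, 3117.8 in Hnf4a knockout, 1774.3 in the library titled Cdx2-Cdx1 and 1075.1 in the library titled Cdx2-Hnf4a. It had the highest score of the window in the first 4 of these lists and not in the library titled Cdx2-Hnf4a. Its scores are not compared between lists, since depth is unknown.

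The next Hnf4a domain, from 163372191 to 163383141, held 28 nucleosomes in wild type and was the one with the most factor peaks, 3 of HNF4A and places of CDX2 at 163375068 and 163378155. It had 31 in Cdx2 knockout, 36 in Hnf4a knockout, 27 in the library titled Cdx2-Cdx1 and 17 in the library titled Cdx2-Hnf4a, a ratio of 0.540 (0.277 to 1.02) in the last. The shortfall was on the far side. From 163372001 to 163376000 wild type had 3, 4, 5 and 4 nucleosomes per kb and the library titled Cdx2-Hnf4a 2, 5, 4 and 5. From 163376001 to 163380000 wild type had 2, 5, 3 and 1, and that library 0, 1, 0 and 0. Cdx2 knockout had 4, 4, 3 and 1 there. The CDX2 site at 163378155, called in all 3 CDX2 lists, lies in this far side.

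Around the site bound by both factors at the 3′ end, the domain from 163398991 to 163403001 had 8 nucleosomes in wild type, 7 in Cdx2 knockout, 12 in Hnf4a knockout, 7 in the library titled Cdx2-Cdx1 and 3 in the library titled Cdx2-Hnf4a. All intervals of its ratios include 1. H3K4me2 was thus still called here in Cdx2 knockout, where HNF4A was called with 2 peaks. The last domain, from 163404351 to 163406701, had 7, 6, 9, 7 and 4.

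**Figure D4:**
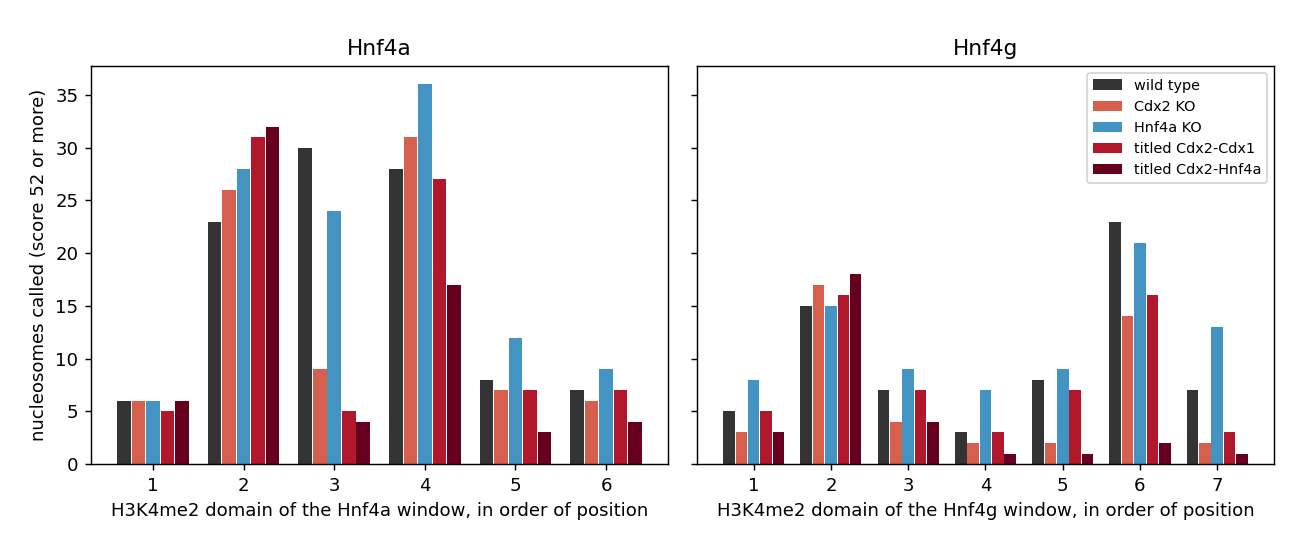
Number of H3K4me2 nucleosomes (score 52 or more) in each domain of the windows, in order of position, for the 5 libraries. Domain 3 of Hnf4a has 30 in wild type and 4 to 9 in the libraries lacking Cdx2, domain 6 of Hnf4g has 23 in wild type and 2 in the library titled Cdx2-Hnf4a, and domain 2 of each gene has as many or more in every knockout as in wild type.

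At Hnf4g the domain at the start, from 3506311 to 3510861, held similar numbers in the 5 libraries: 15 nucleosomes in wild type, 17 in Cdx2 knockout, 15 in Hnf4a knockout, 16 in the library titled Cdx2-Cdx1 and 18 in the library titled Cdx2-Hnf4a. It held no factor peak. Its nucleosome at 3507761 to 3507841 had the highest wild-type score of the window, 3014.8, and those overlapping it scored 2874.0 in Cdx2 knockout, 1874.0 in Hnf4a knockout, 1979.0 in the library titled Cdx2-Cdx1 and 2518.0 in the library titled Cdx2-Hnf4a. Within the window they ranked 1, 2, 2 and 1 in these lists, and scores are not compared between lists. All 6 other domains of the window held at least 1 CDX2 peak. How many domains over the genome hold one was not counted, and a link between peak and mark was not tested.

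All 6 of these domains held fewer nucleosomes in Cdx2 knockout and in the library titled Cdx2-Hnf4a than in wild type. No genome share was computed for a fall of any size. Of the 6 domains of the window with 5 or more wild-type nucleosomes, 5 were at least 1.5-fold lower in Cdx2 knockout and 5 in the library titled Cdx2-Hnf4a, against 11.5% and 19.7% over the genome. In the library titled Cdx2-Cdx1 2 were, against 16.3%, and in Hnf4a knockout none was. The intervals of the 5 in Cdx2 knockout and the 2 in the library titled Cdx2-Cdx1 all include 1. Of the 5 in the library titled Cdx2-Hnf4a, only the domains starting at 3626411, 3633381 and 3642551 have intervals below 1. Of all 7 domains, 3 were at least 1.5-fold higher with Hnf4a deleted, each with an interval that includes 1. The genome share was 8.28%, taken over domains holding 5 or more in that library. Among the 3 is the domain from 3617231 to 3619531, which went from 3 to 7 and is not one of the 6. With gaps of 500 and 2000 bp the numbers were 4 of 9 and 1 of 4. Most single domains are small, so their intervals are wide.

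The largest of them, from 3633381 to 3640511, held 23 nucleosomes in wild type, 14 in Cdx2 knockout, 21 in Hnf4a knockout, 16 in the library titled Cdx2-Cdx1 and 2 in the library titled Cdx2-Hnf4a. Its ratio there was 0.0773 (0.00884 to 0.313), and domains with 20 or more wild-type nucleosomes at least 10-fold lower in that library made up 1.31%. The 10-fold limit was not the planned one, and the share tests nothing, since the domain was named for its large fall. In Cdx2 knockout and the library titled Cdx2-Cdx1 the ratios were 0.582 (0.277 to 1.18) and 0.606 (0.299 to 1.20). A row of 24 wild-type nucleosomes, from 3634631 to 3645151, had no counterpart in the library titled Cdx2-Hnf4a. Cdx2 knockout had 10 nucleosomes in that stretch, the library titled Cdx2-Cdx1 16 and Hnf4a knockout 25. Stretches of 24 or more held 0.393% of all wild-type nucleosomes in the same comparison.

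The other domains with CDX2 peaks held 8 or fewer nucleosomes in wild type. The one from 3626411 to 3629761 had 8 nucleosomes in wild type, 2 in Cdx2 knockout, 9 in Hnf4a knockout, 7 in the library titled Cdx2-Cdx1 and 1 in the library titled Cdx2-Hnf4a. Another, from 3642551 to 3647081, had 7, 2, 13, 3 and 1, and so was low in all 3 libraries lacking Cdx2. Those from 3612841 to 3616171 and 3617231 to 3619531 had 7, 4, 9, 7 and 4, and 3, 2, 7, 3 and 1. The domain before the gene, from 3502621 to 3504701, had 5, 3, 8, 5 and 3.

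Leaving out the domain at the start, a division chosen after the data were seen, the Hnf4g window had 60 nucleosomes in wild type, 34 in Cdx2 knockout, 80 in Hnf4a knockout, 54 in the library titled Cdx2-Cdx1 and 18 in the library titled Cdx2-Hnf4a. Scaled ratios were 0.542 (0.345 to 0.838), 1.31 (0.924 to 1.86), 0.783 (0.532 to 1.15) and 0.267 (0.148 to 0.458). Without the domain from 163331581 to 163341541, next to the approximate start, the ratios of the Hnf4a window were 0.772, 1.15, 0.668 and 0.575. For the last of these libraries the interval of Hnf4g, 0.148 to 0.458, overlapped that of Hnf4a, 0.413 to 0.795.

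Nucleosomes within 1 kb of CDX2 sites were counted at both genes, and the difference between the genes was not tested. At Hnf4g 8 of the 9 wild-type CDX2 sites had a nucleosome in wild type, and all 8 had fewer in Cdx2 knockout, with 39 nucleosomes in wild type and 20 in the knockout over the sites. At Hnf4a 6 of 7 sites were marked, and 2 had fewer, 3 as many and 1 more, with totals of 34 and 32. Over the genome 52% of marked CDX2 sites had fewer. In the library titled Cdx2-Cdx1, 6 of 8 had fewer at Hnf4g and 4 of 6 at Hnf4a (47.2% over the genome). In the library titled Cdx2-Hnf4a, 8 of 8 and 5 of 6 had fewer (57.6%). In Hnf4a knockout, 5 of 8 at Hnf4g had more (34.4% over the genome) and 3 fewer (29.9%), and 2 of 6 at Hnf4a had more and 2 fewer. Neighbouring sites can share nucleosomes, so they are not independent.

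**Figure D5:**
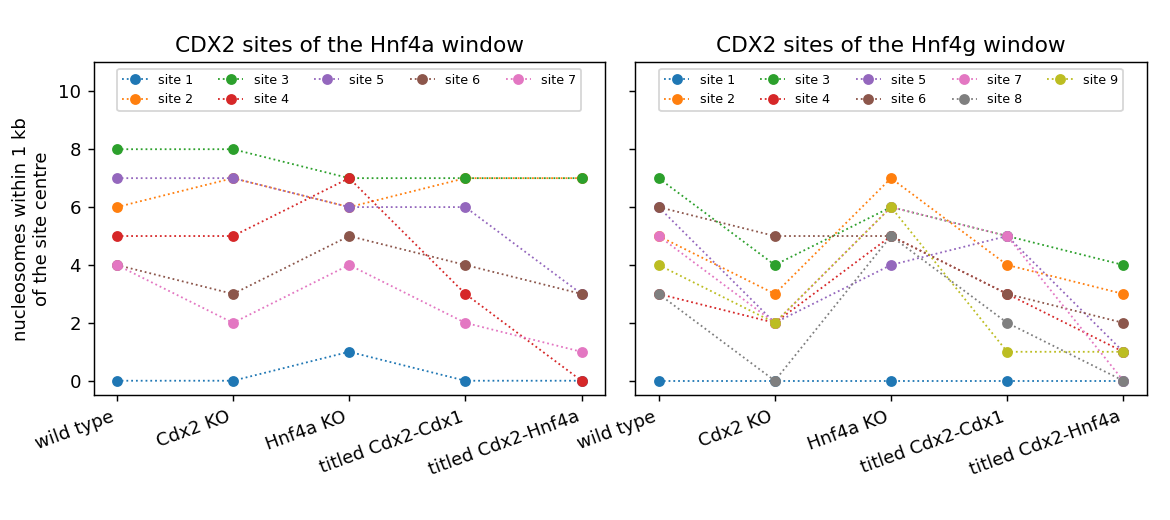
Number of H3K4me2 nucleosomes within 1 kb of the centre of each wild-type CDX2 site, numbered by position, in the 5 libraries, with dotted lines joining the values of 1 site. All 8 marked sites of Hnf4g are lower in Cdx2 knockout than in wild type, and 2 of 6 are at Hnf4a.

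Single CDX2 sites varied within each gene. At the Hnf4g site 3503386 to 3504027 wild type had 5 nucleosomes, Cdx2 knockout 3, Hnf4a knockout 7, the library titled Cdx2-Cdx1 4 and the library titled Cdx2-Hnf4a 3. At 3643681 to 3643947 the counts were 3, 0, 5, 2 and 0. At the Hnf4a site 163400049 to 163401053 they were 7, 7, 6, 6 and 3. At the site inside Hnf4a at 163378155 to 163379247 they were 5, 5, 7, 3 and 0, so this site kept its number in Cdx2 knockout and was bare with the title Cdx2-Hnf4a.

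The deletion of Hnf4a itself could not be checked at its locus, since no source used here gives the deleted segment. With a minimum score of 52 in Hnf4a knockout, 32 of 122 wild-type nucleosomes were not called, and the longest stretch was 4, from 163362381 to 163363561 (1.97% of all wild-type nucleosomes were in one as long). Within it 2 nucleosomes that overlap none of the 4 were called. With the list as deposited, which holds 257 nucleosomes in the window and reaches down to a score of 1.7, 22 were not called and the same stretch was the longest. Stretches of 4 or more held 0.273% of all wild-type nucleosomes with that list. This stretch lies in the domain with few nucleosomes in the lists lacking Cdx2.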

How the data were processed

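Per the labels' protocols, villi were released with 15 mM EDTA, retained on a 70 µm filter and fixed in 1% formaldehyde, or left unfixed and treated with micrococcal nuclease. The authors deposited a score for each peak in 5 lists whose peak names carry the word MACS. They deposited, per the file headers, a score of 10 times −log10 p for each nucleosome in 5 lists. Build mm9 is per the submitters' processing notes. The aligner, tool versions, control and depth were not given in the sources used here, nor which libraries were fixed. An input sample was not analysed here. Peak positions are printed counting from 1, and nucleosome positions as listed.

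Entries were compared with Python 3.11.15, pandas 2.3.3 and scipy 1.17.1. Nucleosomes scoring 52 or more were used in every list, because the deposited lists did not share a minimum. Background shares come from the same calls over whole lists, domains and tiles. Only the functions for overlaps, merging, domains, stretches and ratio intervals were tested, on simulated lists with known answers. Tiles, score cut-offs and unequal depth were not simulated. The members, lists and cut-offs were chosen with earlier results of these data known. By the rule for what is named, all factor peaks of the windows, the fullest domains, those differing most from wild type and the longest uncalled stretches were given; the rest were added for completeness. No gene annotation of mm9 was used beyond the approximate extents of both genes, so other intestinal factor genes were not compared.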

Additional observations from a re-analysis of the deposited data

Results flagged for a closer look

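The number of H3K4me2 nucleosomes lay on opposite sides of wild type in Hnf4a knockout and in each library lacking Cdx2, a difference that was not tested, with 1 library each. At Hnf4a the ratio was 1.16 in Hnf4a knockout and 0.830 in Cdx2 knockout, 0.763 in the library titled Cdx2-Cdx1 and 0.70 in the library titled Cdx2-Hnf4a. At Hnf4g it was 1.24 in Hnf4a knockout and 0.650, 0.812 and 0.427 in the same 3 libraries. The intervals of Hnf4a knockout include 1 at both genes at a score of 52 or more. So do those of Cdx2 knockout at Hnf4a (0.634 to 1.09) and of the library titled Cdx2-Cdx1 at Hnf4g (0.578 to 1.14). With summed scores the Hnf4a knockout ratios were 1.00 at Hnf4a and 1.11 at Hnf4g. Those of the libraries lacking Cdx2 stayed below 1, the nearest being 0.954 in Cdx2 knockout at Hnf4a. With the lists as deposited, the Hnf4g interval of Hnf4a knockout, 1.05 to 1.81 around 1.37, excludes 1. That list holds 202 nucleosomes there, 107 of them below 52. At a score of 100 or more the same ratio was 1.06 (0.710 to 1.58).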

How the results depend on the processing

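Of 106 recomputed values of the kept shares and nucleosome ratios, 97 stayed within the main interval and none reversed. Staying inside says little where that interval is wide, as for HNF4A at Hnf4g (0 to 97.5, from 1 peak). Counted over the gene alone, with its approximate ends, HNF4A was kept in Cdx2 knockout at 0% of the peaks of Hnf4a, since the strongest site falls just outside. The Hnf4g share of nucleosomes kept in the library titled Cdx2-Hnf4a was then 24.1% and the ratio 0.276. Without the domain at the gene's start, a setting added after seeing the data, the ratio was 0.267. At a score of 100 or more, nucleosomes kept at Hnf4a were 52% in the library titled Cdx2-Cdx1 and 43.9% in the library titled Cdx2-Hnf4a. With summed scores in place of numbers, the Hnf4a ratio was 1.00 in Hnf4a knockout and 0.954 in Cdx2 knockout. With centres at most 50 bp apart, 70.7% of Hnf4g nucleosomes were kept in Hnf4a knockout. With CDX2 lists of equal length, 80.0% of the Hnf4g places were kept. The HNF4A share at Hnf4a was 50% with lists of equal length and 25% at a score of 70 or more. The CDX2 share at Hnf4a was 40% at a score of 70 or more and 33.3% over the gene alone. Leaving out 1 wild-type CDX2 library gave 60% and 100% kept at Hnf4a and 57.1% at Hnf4g with either. Domain counts moved with the gap of 500 or 2000 bp in 9 of 32 cases. No paired analysis was possible because the groups compared share fewer than 2 replicate numbers. Kept shares over fewer than 10 peaks have wide intervals, and depth in reads is unknown.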
